A study of Mus musculus with 36 samples.

Results

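The proteasome genes of mouse brain were measured here as 83 probes for 47 genes, out of 45281 probes carrying 30854 symbols on Illumina whole-genome expression BeadChips. The genes were taken by name alone: every probe whose symbol begins with Psm, then one letter from a to g, then a digit. No measured value entered that choice. 1 of the 47, Psmc3ip, matched by name only, since it encodes a meiotic recombination factor and no part of the proteasome. Psmg1, Psmg4 and Psme2b were looked for by name and no probe carried these 3 symbols.

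The study asked what chronic inhibition of histone deacetylases does to transcripts in 3 regions of mouse brain: the hippocampus (HIP), the nucleus accumbens (NAc) and the medial part of the prefrontal cortex (PFC). Adult male C57BL/6 mice, which carried no transgene or mutation in the labels, received 10 daily intraperitoneal injections and tissue was taken 1 hour after the last. The 4 treatments were vehicle (saline with polyethylene glycol and DMSO, given to the control animals), Cpd-60 at 45 mg/kg, an inhibitor selective for the deacetylases Hdac1 and Hdac2, SAHA at 25 mg/kg, a broader inhibitor, and CI-994 at 10 mg/kg, a class I inhibitor. Every array was hybridised with RNA of a pool of 2 animals. A treatment had 3 such pools, each dissected into all 3 regions, which gives 36 arrays. Mice came from more than one supplier, which the labels do not give by animal. The drugs were given at different doses, so their values are set side by side and not compared with each other.

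The proteasome degrades proteins tagged with ubiquitin. Its core is a barrel of outer alpha rings and inner beta rings, of which Psmb5, Psmb6 and Psmb7 carry the chymotrypsin-like, caspase-like and trypsin-like cutting sites. A regulatory cap sits on the barrel: its base holds the Psmc ATPases that unfold the substrate, and its lid holds Psmd14, which strips the ubiquitin chain. Under interferon, Psmb8, Psmb9 and Psmb10 replace the 3 standard catalytic subunits to form the immunoproteasome, which trims peptides for antigen presentation, and Psme1 and Psme2 form an alternative cap. Neurons depend on the proteasome for protein turnover at synapses.

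Levels are log2 of quantile-normalized bead intensity, and a difference of 1 is a doubling in linear intensity. A probe entered a test when some group had all 3 of its detection p-values no higher than 0.2. Where a gene had several tested probes, counts use the one with the highest mean level. Because the intensity of one probe cannot be set against that of another, levels are compared only within a probe.

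The arrays differed in brightness and between BeadChips, and whether a treatment had a part in the brightness was not tested. The 95th percentile of raw intensity, used here as the brightness of an array, ran from 349.9 to 1079.7 with a median of 665. SAHA HIP replicates 2 and 3 were dim at 437.7 and 452, against 839.6, 794.5 and 686.4 for the vehicle HIP arrays. The 36 arrays lay on 6 BeadChips, each of which held 1 region only, so region and BeadChip cannot be told apart. Each region had BeadChip 1, with replicates 1 and 2 of vehicle and Cpd-60 and replicate 1 of SAHA and CI-994, and BeadChip 2 with the other 6 arrays. The 2 NAc BeadChips stood apart from each other: 11.4% of the 18889 genes tested were higher and 13% lower on BeadChip 2 at an adjusted p under 0.05, and the NAc calls against PFC are therefore given for each BeadChip as well. Arrays of one group correlated at 0.970 to 0.994, and no 2 arrays were identical. The dissections matched their labels: 8 of 8 striatal marker genes were higher in NAc than in PFC with a median difference of 3.43, 5 of 6 hippocampal markers were higher in HIP than in PFC, and 5 of 7 cortical markers were lower.

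The promoters of 4 members that the results below turn on are printed first. Windows of 300 bases, 250 before to 50 after the annotated start, were read from RefSeq on GRCm38.p6 for 39 of the 47 members and for 27025 genes in all. The letters TGACNNNGC, the core of the antioxidant response element that Nfe2l1 and related factors recognise, were searched on both strands. They stood in 6 of the 39 member windows (15.4%: Psmb5, Psmb6, Psmc6, Psmd9, Psmd12 and Psme4) and in 14% of the windows of all genes. Psmb5, Psmb6 and Psmd12 are shown because they hold a match and recur in the comparisons, and Psmd14 because it had the largest difference between regions and holds none. Each line gives 120 bases, 5′ to 3′ along the gene, with the match in capitals. Psmb5 is at chr14:54617996-54618115 on the minus strand and Psmb6 at chr11:70525237-70525356 on the plus strand. Psmd12 is at chr11:107479278-107479397, where the match lies on the strand opposite the gene, and Psmd14 is at chr2:61711574-61711693, both on the plus strand.
Psmb5: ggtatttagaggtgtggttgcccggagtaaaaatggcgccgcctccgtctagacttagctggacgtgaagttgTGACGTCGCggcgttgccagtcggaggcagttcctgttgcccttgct
Psmb6: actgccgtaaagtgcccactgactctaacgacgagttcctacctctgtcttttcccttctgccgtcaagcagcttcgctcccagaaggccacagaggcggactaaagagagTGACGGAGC
Psmd12: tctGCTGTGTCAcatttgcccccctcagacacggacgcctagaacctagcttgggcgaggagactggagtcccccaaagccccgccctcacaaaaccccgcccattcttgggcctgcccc
Psmd14: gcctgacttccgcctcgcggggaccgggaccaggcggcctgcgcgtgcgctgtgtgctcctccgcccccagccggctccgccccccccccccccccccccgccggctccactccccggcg

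The match began at base -47 from the start in Psmb5, at -9 in Psmb6 and at -247 in Psmd12. Of 4 other motifs searched the same way, the ETS core CCGGAAG stood in 14 of 39 member windows (35.9%) and in 9.93% of all windows. The CCAAT box stood in 15 (38.5%) against 41.1%, the interferon-stimulated response element in 4 (10.3%) against 3.99%, and the interferon-gamma site TTCNNNGAA in 2 (5.13%) against 9.55%. The 5 motifs were not checked for overlap with each other, and these matches describe letters in a window and not binding.

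Most proteasome genes were expressed throughout. 37 of the 47 were detected on all 36 arrays by at least 1 probe at a detection p-value of at most 0.01, and 41 were tested in at least 1 fit (40 in PFC, 41 in NAc and 40 in HIP). All 7 inner beta genes, all 6 base ATPases, all 3 further base subunits, all 5 activators and inhibitors, all 3 base chaperones and both core chaperones on the array were tested, as were 7 of 8 lid genes. In the alpha ring only 4 of 8 were, namely Psma2, Psma4, Psma5 and Psma7. The 6 genes tested nowhere were Psma1, Psma3, Psma6, Psma8, Psmb11 and Psmd3. Psma8 and Psmb11 are known for testis and thymus, whereas Psma1, Psma3, Psma6 and Psmd3 are standard subunits of every proteasome, so their probes not rising above background gives no measure of their transcripts.

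Under vehicle, a minority of the proteasome genes differed between the 3 regions, in both directions. The median difference over the 41 tested genes was 0.02 for HIP minus PFC, -0.03 for NAc minus PFC and 0.07 for HIP minus NAc, beside -0.02, 0.00 and 0.00 over all 18889 genes. These medians depend on the scaling: with arrays centred on their medians, 32 of 41 members lay above the all-gene median in HIP against PFC (24 as reported) and 34 of 41 in HIP against NAc (27 as reported). In HIP against PFC, 7 members were higher (10.1% of all genes were) and 1 was lower (10.2% of all genes) at an adjusted p under 0.05. The 7 include Psmd6, for which no PFC group met the detection rule. In NAc against PFC, 3 were higher and 2 lower, beside 7.08% and 8.78% of all genes. In HIP against NAc, 1 was higher and 1 lower, beside 6.24% and 7.67%. The lower one was Psmc3ip, which is no part of the proteasome and is also counted among the members higher in HIP and in NAc than in PFC. In bulk tissue, fewer cells of a type and less transcript per cell cannot be told apart.

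Among the catalytic subunits, Psmb6 was higher in both NAc and HIP than in PFC. Its levels in the 3 vehicle pools were 9.46, 9.67 and 9.68 in PFC, 10.17, 10.12 and 10.23 in NAc, and 10.34, 10.24 and 10.25 in HIP. No PFC pool reached the lowest NAc or HIP pool. Psmb6 was 0.67 higher in HIP than in PFC (SE 0.10, limma adjusted p = 1.5e-05) and 0.57 higher in NAc than in PFC (SE 0.10, limma adjusted p = 9.5e-05). Over all 12 arrays of a region, drugs included, it ran from 9.46 to 9.95 in PFC, from 9.90 to 10.43 in NAc and from 10.17 to 10.48 in HIP, so that NAc met the upper edge of PFC.

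Psmb5, the chymotrypsin-like subunit and the main target of proteasome inhibitor drugs, was instead higher in HIP than in either other region. The vehicle pools read 8.96, 8.93 and 9.01 in PFC, 8.89, 8.81 and 8.83 in NAc, and 9.65, 9.39 and 9.40 in HIP. All 3 HIP pools lay above every other vehicle pool. The difference was 0.51 from PFC (SE 0.12, limma adjusted p = 0.0039) and 0.64 from NAc (SE 0.12, limma adjusted p = 0.00045). Without vehicle replicate 1 the first of these no longer passed. The HIP range over 12 arrays, 9.28 to 9.79, overlapped that of PFC (8.68 to 9.34) and cleared that of NAc (8.61 to 9.21). The analysed probes of the other 5 inner beta genes did not pass the test in any vehicle region comparison, although a dimmer probe of Psmb7 was 0.51 higher in HIP than in PFC.

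Psmb10, the immunoproteasome counterpart of the trypsin-like subunit, ran the other way and was highest in PFC. Its vehicle pools read 9.47, 9.43 and 9.77 in PFC, 8.92, 8.79 and 7.98 in NAc, and 8.84, 8.88 and 9.02 in HIP. All PFC pools were above all others, and the NAc pool on BeadChip 2 was far below its fellows. Psmb10 was 1.00 lower in NAc than in PFC (SE 0.22, limma adjusted p = 0.0015) and 0.64 lower in HIP (-0.64, SE 0.22, limma adjusted p = 0.035). A second Psmb10 probe gave -1.12 (SE 0.16, limma adjusted p = 5.3e-06) and -0.82 (SE 0.16, limma adjusted p = 0.00050). On NAc BeadChip 1 alone, with all treatments, the difference from PFC was -0.81 (SE 0.12, limma adjusted p = 1.9e-06). The NAc difference of the first probe lost the test without vehicle replicate 3, the pool on BeadChip 2, and ranged over all alternatives from -1.22 to -0.60. The HIP difference of the first probe lost the test without any 1 of the 3 vehicle replicates, ranging over all alternatives from -0.74 to -0.50.

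The other immunoproteasome subunits were near the floor of the array and level across regions. Psmb8 read 7.09, 7.13 and 7.10 in PFC, 7.18, 7.08 and 6.94 in NAc and 7.05, 7.17 and 7.32 in HIP under vehicle. Psmb9 read 6.73, 6.76 and 6.54, then 6.64, 6.68 and 6.69, then 6.68, 6.74 and 6.63. The pools of both genes overlapped in every pair of regions, with differences of at most 0.12 (SE 0.09, limma adjusted p = 0.46, Psmb8 in HIP against NAc). Of 15 tested genes of antigen processing and interferon response, 0 were higher and 4 lower in NAc than in PFC (7.08% and 8.78% of all genes). The lower ones included the class I heavy chain H2-D1 (-0.58), its light chain B2m (-0.36) and the interferon factor Irf1 (-0.34). In HIP against PFC, 0 were higher and 2 lower (10.1% and 10.2% of all genes), namely Ifit3 (-0.27) and the peptide-loading factor Tapbp (-0.27). Microglia and macrophage markers had summed vehicle levels of 10.90 to 11.09 in PFC, 10.99 to 11.07 in NAc and 10.87 to 10.95 in HIP. Of these 8 genes, 1 was higher and 0 lower in either region, beside the same shares of all genes.

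The lid showed the largest single difference. Psmd14, the lid deubiquitinase, read 7.05, 6.88 and 7.46 in vehicle PFC, 7.33, 7.69 and 8.68 in NAc, and 8.46, 8.53 and 8.21 in HIP. PFC and HIP did not overlap, and the NAc pools spread across the gap. Psmd14 was 1.27 higher in HIP than in PFC (SE 0.33, limma adjusted p = 0.0063), and a second probe gave 1.04 (SE 0.33, limma adjusted p = 0.025). The call of the first probe was lost without vehicle replicate 1 and without vehicle replicate 2. Over 12 arrays a region, it ran from 6.88 to 7.46 in PFC and from 8.15 to 8.71 in HIP.

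Psmd11, a scaffold subunit of the lid, read 7.43, 7.47 and 7.53 in PFC, 7.72, 7.76 and 8.03 in NAc and 8.17, 8.23 and 8.01 in HIP. It was 0.66 higher in HIP than in PFC (SE 0.16, limma adjusted p = 0.0031), and all 12 HIP arrays (8.01 to 8.43) lay above all 12 PFC arrays (7.43 to 7.87). This call too was lost without vehicle replicate 1 and without vehicle replicate 2. A dimmer Psmd11 probe gave 0.10 (SE 0.07, limma adjusted p = 0.32). Psmd6, a further lid subunit, was 0.32 higher in HIP than in PFC (SE 0.11, limma adjusted p = 0.036). No PFC group met the detection rule for Psmd6, so it entered this test only through the other regions, where it read higher. In total 3 of 7 tested lid genes were called higher in HIP than in PFC and 0 lower (10.1% and 10.2% of all genes). Psmd14 and Psmd11 were called beside Psmd6, which given its entry into the test is no support for a difference of the lid. No lid gene passed in NAc against PFC, where Psmd14 differed by 0.77 (SE 0.33, limma adjusted p = 0.12).

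In the base, Psmc1, an ATPase whose tail opens the gate of the core, read 8.92, 9.09 and 9.08 in PFC, 9.40, 9.47 and 9.43 in NAc and 9.53, 9.52 and 9.42 in HIP. No PFC pool overlapped the other regions. Psmc1 was 0.46 higher in HIP (SE 0.13, limma adjusted p = 0.016) and 0.40 higher in NAc (SE 0.13, limma adjusted p = 0.044) than in PFC. The HIP call was lost in 3 of 10 alternatives. The NAc call was lost in 6 of 10, including each one that left out a vehicle replicate. The analysed probes of the other 5 ATPases did not pass the test between vehicle regions, nor did those of Psmd1, Psmd2 and Psmd4. A dimmer probe of Psmc4 was 0.49 higher in HIP than in PFC.

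In the outer ring, Psma5 read 11.35, 11.49 and 11.65 in PFC, 11.30, 11.26 and 11.04 in NAc and 11.24, 11.22 and 11.46 in HIP. It was 0.29 lower in NAc than in PFC (-0.29, SE 0.10, limma adjusted p = 0.042), with no overlap of the 3 pools, but this call was lost in 6 of 10 alternatives. Psmc3ip, the member by name only, read 6.95, 7.15 and 6.84 in PFC, 7.64, 7.61 and 7.61 in NAc and 7.18, 7.36 and 7.31 in HIP. The 3 regions did not overlap, and NAc was 0.64 above PFC (SE 0.09, limma adjusted p = 2.3e-06) while HIP was 0.34 below NAc (-0.34, SE 0.09, limma adjusted p = 0.0070) and 0.30 above PFC (limma adjusted p = 0.013).

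**Figure D1:**
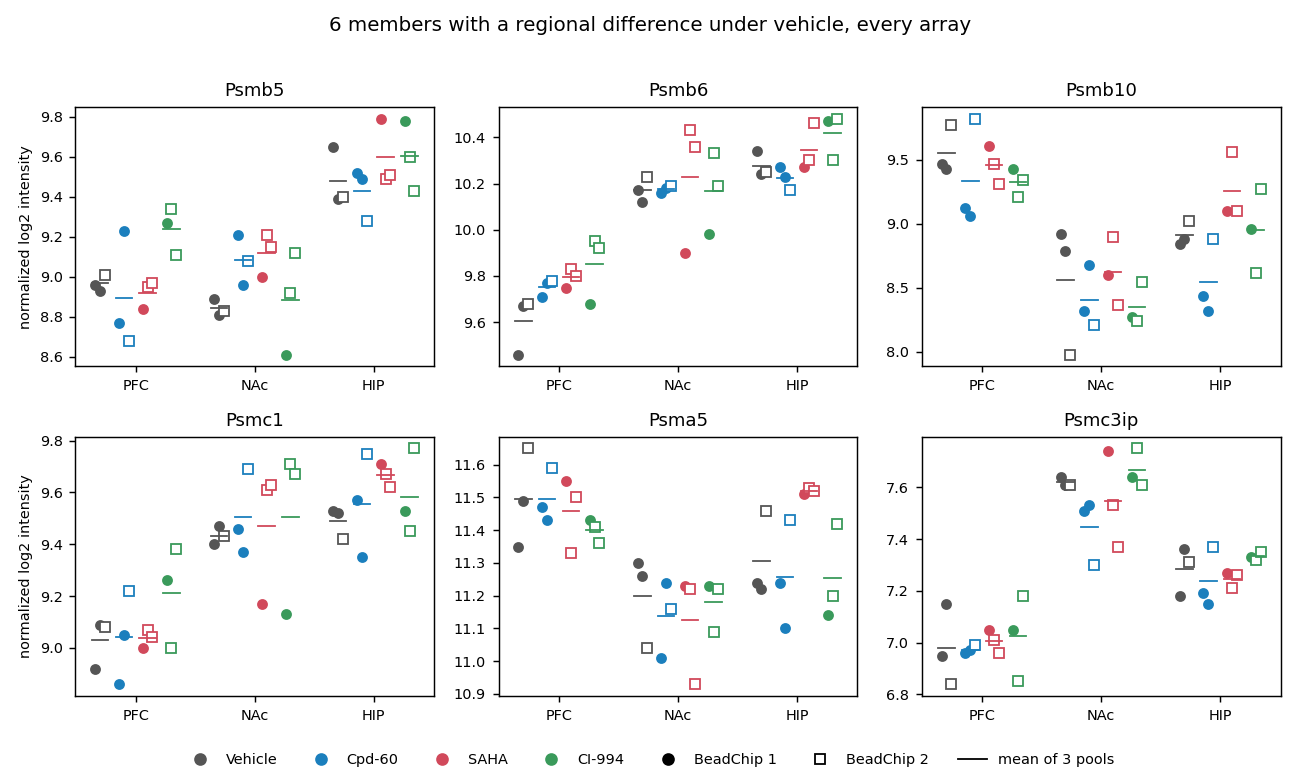
Normalized log2 intensity (vertical axis) of Psmb5, Psmb6, Psmb10, Psmc1, Psma5 and Psmc3ip by region and treatment on all 36 arrays; filled circles are BeadChip 1, open squares BeadChip 2, and lines the mean of 3 pools. Psmb6 sits between 9.46 and 9.95 in PFC and between 10.17 and 10.48 in HIP, and Psmb10 is higher in PFC than in NAc.

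Cell type markers moved with the regions too. All 7 oligodendrocyte genes were higher than in PFC in both HIP (median 1.27) and NAc (median 0.68), and their summed vehicle level ran from 12.92 to 13.22 in PFC, 13.76 to 14.13 in NAc and 14.51 to 14.64 in HIP. All 4 choroid plexus genes were higher in HIP than in PFC. Their part in the differences of proteasome genes was not tested.

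Proteasome genes differed in both directions between the 2 NAc BeadChips. Between BeadChip 2 and BeadChip 1 of the NAc, with treatment in the fit, 6 of 41 members were higher and 11 lower, beside the 11.4% and 13% of all genes given above. Of the 7 tested lid genes, 4 were higher and 0 lower. Psmd14 ran from 7.33 to 7.69 on the 6 arrays of BeadChip 1 and from 8.52 to 8.68 on the 6 of BeadChip 2, and was 1.12 higher on the latter (SE 0.07, limma adjusted p = 9.2e-15). Its second probe stepped by 1.18. Arrays of every treatment lay on both BeadChips.

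Psmd11 stepped up by 0.49 (SE 0.07), Psmd7, the lid partner of Psmd14, by 0.38 (SE 0.14) and Psmd6 by 0.26 (SE 0.05), as did Psmc1 by 0.29 and Psmb6 by 0.18. The members that were lower included the alpha subunit Psma7 (-0.39, SE 0.07), the beta subunits Psmb1 (-0.34), Psmb2 (-0.22) and Psmb4 (-0.20), the alternative cap subunits Psme2 (-0.33, SE 0.05) and Psme1 (-0.23), and the core chaperones Psmg2 (-0.29) and Psmg3 (-0.29). The remaining 3 lower members were the ATPase Psmc3 (-0.29), the ubiquitin receptor Psmd4 (-0.26) and the base chaperone Psmd9 (-0.18). Dimmer probes of some members were higher where the analysed one was not: a second probe of the base chaperone Psmd10 by 0.73, one of Psmg2 by 0.67 and one of Psmc2 by 0.46.

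In PFC, limma called 0 of 41 members higher and 0 lower between the 2 BeadChips at an adjusted p under 0.05 (0.625% and 0.0424% of all genes). At an unadjusted p under 0.05, 3 were higher and 2 lower (5.23% and 4.47%). In HIP, 0 were higher and 2 lower after adjustment (0.736% and 2.05%), Psmd14 by -0.35 (SE 0.07) and Psmd6 by -0.20 (SE 0.05). Without adjustment 11 were higher and 5 lower in HIP (8.49% and 7.88%).

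**Figure D2:**
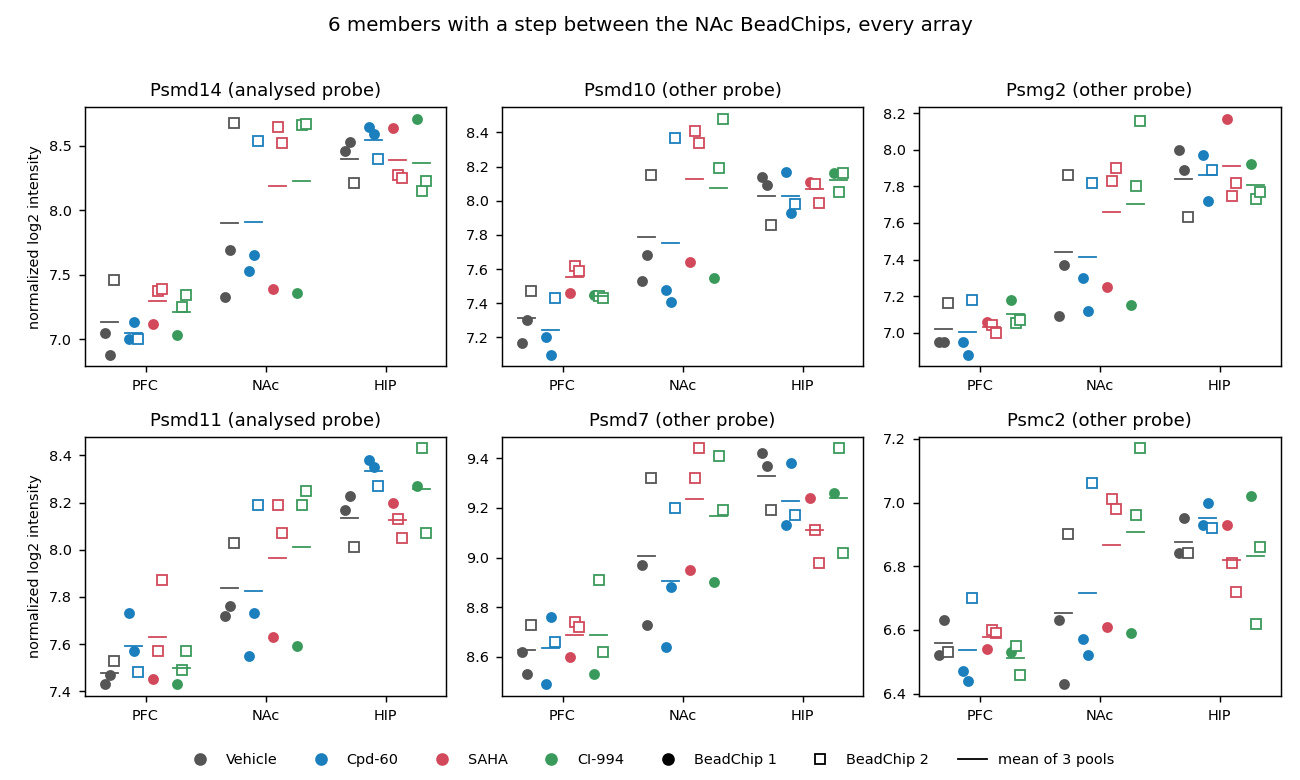
Normalized log2 intensity (vertical axis) by region on all 36 arrays for probes of Psmd14, Psmd10, Psmg2, Psmd11, Psmd7 and Psmc2; filled circles are BeadChip 1, open squares BeadChip 2, and lines the mean of 3 pools. In NAc the Psmd14 arrays of BeadChip 2 (8.52 to 8.68) are clear of those of BeadChip 1 (7.33 to 7.69), whatever the treatment.

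Which NAc BeadChip was used changed the region result. With the 6 arrays of NAc BeadChip 1 and all treatments, 5 members were higher and 4 lower than in PFC (16.3% and 15% of all genes), among them Psmb6 (0.35, SE 0.05), Psmc1 (0.25, SE 0.07), Psmc3ip (0.62, SE 0.05), Psmd14 (0.33, SE 0.06), Psma5 (-0.25, SE 0.06) and Psmb10 (-0.81, SE 0.12). With BeadChip 2, 7 were higher and 16 lower (21% and 25.2% of all genes), and the same genes differed by 0.53 for Psmb6, 0.54 for Psmc1, 0.52 for Psmc3ip, 1.45 for Psmd14, -0.35 for Psma5 and -1.06 for Psmb10. The 5 members called in NAc against PFC under vehicle thus kept their direction on either BeadChip. HIP was 0.93 above NAc BeadChip 1 in Psmd14 (SE 0.06, limma adjusted p = 6.7e-15) but 0.19 below NAc BeadChip 2 (-0.19, SE 0.06, limma adjusted p = 0.011). Against BeadChip 2, 13 members were higher in HIP and 2 lower, beside 14.4% and 15.7% of all genes. Psmb5 was above NAc by 0.59 (SE 0.08) against BeadChip 1 and by 0.50 (SE 0.08) against BeadChip 2. Its HIP excess thus held against either BeadChip, while the direction of Psmd14 did not.

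Probes of one gene did not always move together. For Psmd7, HIP was above PFC by 0.70 on one probe (SE 0.15, limma adjusted p = 0.0018) and below it on another (-0.30, SE 0.09, limma adjusted p = 0.016), while the analysed probe, a brighter one, gave 0.46 (SE 0.23, limma adjusted p = 0.175). For Psmd10 a dimmer probe gave 0.72 (SE 0.21, limma adjusted p = 0.016) and the brightest one -0.24 (SE 0.10, limma adjusted p = 0.075). Probes of Psmg2 disagreed as well, here with BeadChip as a random block. A dimmer one was 0.80 higher in HIP than in PFC (SE 0.18, limma adjusted p = 0.0023). Another dimmer one gave 0.32 (SE 0.12, limma adjusted p = 0.060) and the brightest, analysed one -0.14 (SE 0.17, limma adjusted p = 0.65). No direction is given for any of these genes between these regions. Probe positions within the transcripts were not used here.

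Members also followed array brightness inside the groups. In a fit of the 12 groups with brightness as a term, 2 members were higher on brighter arrays (0.964% of all genes) and 5 lower (2%) at an adjusted p under 0.05. Per doubling of brightness, Psmd1 rose by 0.31 (SE 0.07) and the alpha subunit Psma4 by 0.26 (SE 0.06). Those that fell were the core chaperone Psmg2 (-0.36, SE 0.09), Psmd4 (-0.34, SE 0.09), Psmb2 (-0.29, SE 0.05), the base chaperone Psmd5 (-0.28, SE 0.08) and Psmc2 (-0.23, SE 0.06). Without the 3 SAHA HIP arrays limma called 0 higher and 1 lower, Psmb2 (0.519% and 0.932% of all genes). At an unadjusted p under 0.05 the counts were 3 higher and 14 lower with these arrays (9.54% and 10.9%) and 4 higher and 13 lower without them (8.94% and 10.3%).

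**Figure D3:**
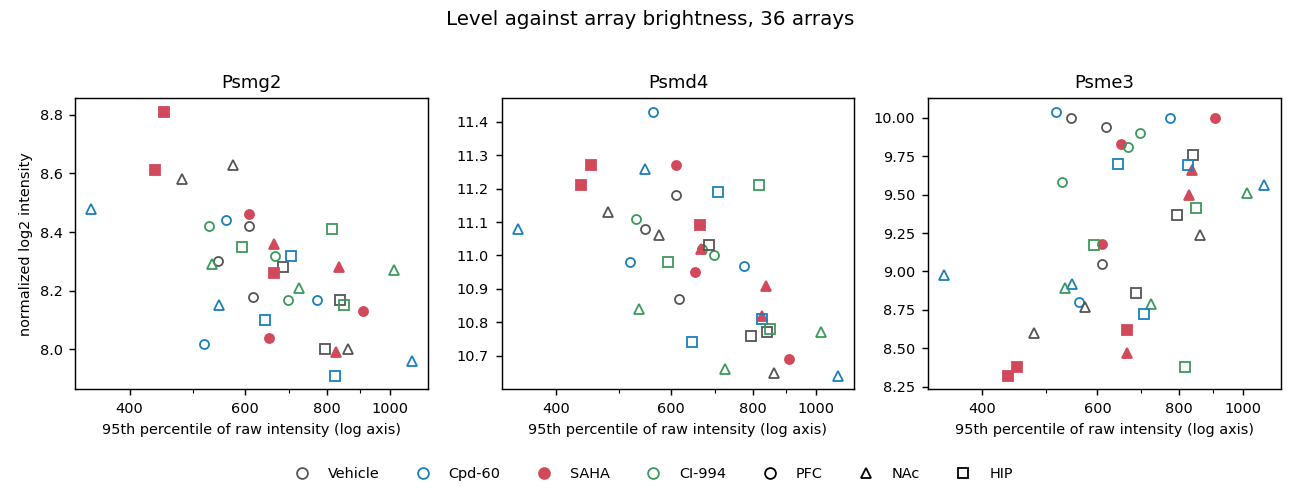
Normalized log2 intensity of Psmg2, Psmd4 and Psme3 (vertical axes) against the 95th percentile of raw intensity of each array (horizontal axis); filled symbols are SAHA arrays, and shapes mark the regions. The SAHA HIP arrays at 437.7 and 452 are among the dimmest and carry the highest Psmg2 levels within HIP, 8.61 and 8.81 against at most 8.41 on the other HIP arrays.

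Against vehicle, no drug changed a proteasome gene past the corrected threshold. In each of the 9 comparisons of a drug with vehicle within a region, limma called 0 members, and 0 of all probes tested, at an adjusted p under 0.05. The smallest adjusted p of any analysed member probe was 0.50, in SAHA against vehicle in HIP. The member medians lay between -0.02 and 0.09 (0.00, -0.01 and 0.05 for Cpd-60, SAHA and CI-994 in PFC, 0.00, -0.02 and 0.00 in NAc, and -0.02, 0.07 and 0.09 in HIP), and all-gene medians were at or near 0.00. What follows describes members at an uncorrected threshold, an unadjusted limma p under 0.05, beside the share of all genes there. It is looser than the study's own rule, an uncorrected one-way test followed by Tukey's test, with a cut on fold change for its gene sets.

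At the uncorrected threshold, Cpd-60 had 1 member higher (2.67% of all genes) and 0 lower (2.72%) of 40 in PFC, 1 higher (2.08%) and 0 lower (2.93%) of 41 in NAc, and 2 higher (2.34%) and 1 lower (3.18%) of 40 in HIP. SAHA had 2 higher (1.17%) and 0 lower (1.04%) in PFC, 2 higher (0.904%) and 0 lower (1.3%) in NAc, and 4 higher (4.41%) and 1 lower (5.38%) in HIP. CI-994 had 3 higher (2.27%) and 0 lower (1.83%) in PFC, 0 and 0 in NAc (0.874% and 1.18%) and 0 and 0 in HIP (1.71% and 1.51%). The methods' test, with its correction for the pairs of treatments, called 1 member each for Cpd-60 and SAHA in PFC and 0 in the other 7 comparisons. Same-numbered Cpd-60 and vehicle pools, which lay on the same BeadChip, deviated together in PFC and NAc. With the number as a replicate block Cpd-60 had 2 members at the uncorrected threshold in each: Psmd12 in both, Psmb6 (0.15, SE 0.07) in PFC and Psmd5 (-0.26, SE 0.11) in NAc.

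Psmd12, a lid subunit, stood at the uncorrected threshold in 5 of the 9 comparisons, and Psmb5 and Psmb6 in 2 each. In PFC the vehicle pools of Psmd12 read 9.30, 9.25 and 9.28, those of Cpd-60 9.45, 9.47 and 9.37, of SAHA 9.46, 9.47 and 9.41, and of CI-994 9.32, 9.28 and 9.39. Every Cpd-60 and SAHA pool lay above every vehicle pool. The differences were 0.15 for Cpd-60 (SE 0.06, limma adjusted p = 0.92) and 0.17 for SAHA (SE 0.06, limma adjusted p = 1.0), and 0.05 for CI-994 (SE 0.06).

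In NAc the Psmd12 pools read 9.17, 9.20 and 9.10 under vehicle, 9.22, 9.44 and 9.43 under Cpd-60, 9.38, 9.22 and 9.51 under SAHA and 9.32, 9.17 and 9.24 under CI-994. Cpd-60 and SAHA pools were again all above vehicle, by 0.21 each (SE 0.09). In HIP vehicle pools read 9.22, 9.50 and 9.23, Cpd-60 9.53, 9.57 and 9.43, SAHA 9.19, 9.27 and 9.43 and CI-994 9.55, 9.40 and 9.40. The Cpd-60 difference was 0.19 (SE 0.09) with overlap of the pools, and that of SAHA was -0.02 (SE 0.09). For Cpd-60 the difference was above 0 within both BeadChips of every region, at 0.18 and 0.09 in PFC, 0.14 and 0.34 in NAc and 0.19 and 0.20 in HIP. With neqc background correction or median centring, Psmd12 no longer stood at that threshold in any of the 5. The 2 drugs share the vehicle arrays, and a second, dimmer Psmd12 probe tested in HIP gave 0.05 for Cpd-60 (SE 0.14).

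The catalytic genes Psmb5 and Psmb6, whose promoters are printed above, appeared in PFC and NAc. Psmb6 in PFC read 9.46, 9.67 and 9.68 under vehicle, 9.75, 9.83 and 9.80 under SAHA (0.19, SE 0.08) and 9.68, 9.95 and 9.92 under CI-994 (0.24, SE 0.08). The SAHA pools cleared vehicle and those of CI-994 met its upper edge. Psmb5 in PFC read 8.96, 8.93 and 9.01 under vehicle and 9.27, 9.34 and 9.11 under CI-994 (0.27, SE 0.12, limma adjusted p = 1.0), without overlap. In NAc, Psmb5 read 8.89, 8.81 and 8.83 under vehicle and 9.0, 9.21 and 9.15 under SAHA (0.28, SE 0.12), also without overlap. Cpd-60 pools of Psmb5 in PFC, at 8.77, 9.23 and 8.68, straddled vehicle. Those of Psmb5 in NAc (0.24, SE 0.12) and of Psmb6 in PFC (0.15, SE 0.08) were all above vehicle.

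Of the immunoproteasome subunits, Psmb8 in PFC read 7.25, 7.27 and 7.35 under CI-994 against 7.09, 7.13 and 7.10 under vehicle (0.18, SE 0.07, limma adjusted p = 1.0). These pools did not overlap, but a second Psmb8 probe gave -0.05 (SE 0.08). In the other 8 comparisons Psmb8 differed by -0.02 to 0.09, and Psmb9 differed by -0.06 (Cpd-60 in NAc) to 0.13 (SAHA in HIP, SE 0.07) over all 9. The interferon and antigen list had 3 of 12 genes higher and 0 lower at the uncorrected threshold for CI-994 in PFC (H2-D1 0.38, B2m 0.27 and Ifit3 0.17; 2.27% and 1.83% of all genes), and 2 of 13 higher in HIP (H2-D1 0.35 and Ifit3 0.21; 1.71% of all genes). For Cpd-60, Ifitm3 was higher (0.43) and Tapbp lower (-0.19) in PFC, and Ifitm3 was higher in NAc (0.39). For SAHA in HIP, Tap2 (0.24) and Tapbp (0.22) were higher and Bst2 lower (-0.17). The other 4 drug comparisons had none at that threshold, and limma called 0 in all 9 at an adjusted p under 0.05.

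Psmb10 had values below vehicle under Cpd-60 on both of its probes in PFC and HIP, none of which passed the corrected test. In HIP the analysed probe read 8.84, 8.88 and 9.02 under vehicle and 8.44, 8.32 and 8.88 under Cpd-60 (-0.37, SE 0.18, limma adjusted p = 0.98). The second probe, whose values were looked at after those of the first, read 8.78, 8.70 and 8.77 under vehicle and 8.34, 8.47 and 8.53 under Cpd-60 (-0.30, SE 0.11, limma adjusted p = 0.91). On the second probe all Cpd-60 pools were below all vehicle pools in HIP, and the same was so in PFC, where it read 9.55, 9.69 and 9.45 under vehicle and 9.32, 9.20 and 9.36 under Cpd-60 (-0.27, SE 0.08, limma adjusted p = 0.79). The analysed probe gave -0.23 in PFC (SE 0.17) with overlap, and within the BeadChips there -0.36 and 0.05. In NAc the differences were -0.16 (SE 0.23) and -0.11 (SE 0.22). Under SAHA and CI-994 the analysed probe differed by -0.10 and -0.23 in PFC, 0.06 and -0.21 in NAc, and 0.34 (SE 0.18) and 0.03 in HIP.

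In HIP, Cpd-60 had Psmd11 at 8.38, 8.35 and 8.27 against 8.17, 8.23 and 8.01 under vehicle (0.20, SE 0.09), and Psme1 at 8.96, 9.07 and 9.20 against 9.28, 9.26 and 9.33 (-0.21, SE 0.09, limma adjusted p = 0.93). Neither pair of groups overlapped. Both differences kept their sign within each HIP BeadChip.

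SAHA in HIP had the most members at the uncorrected threshold. Its replicates 2 and 3 were dim, and all 3 of its arrays detected fewer probes (34.3%, 32.1% and 32.3%) than any other HIP array (37.3% to 39.7%). Psme3, the nuclear activator of the core, read 9.76, 9.37 and 8.86 under vehicle and 8.62, 8.32 and 8.38 under SAHA (-0.89, SE 0.31, limma adjusted p = 0.50). Psmg2 read 8.17, 8.0 and 8.28 under vehicle and 8.26, 8.61 and 8.81 under SAHA (0.41, SE 0.14, limma adjusted p = 0.50). The Psme3 groups did not overlap and the Psmg2 groups did, at the SAHA pool that was not dim. The other 2 probes of Psmg2, both dimmer, differed by 0.07 each (SE 0.10 and 0.12).

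Psmd4 read 10.77, 10.76 and 11.03 under vehicle and 11.09, 11.21 and 11.27 under SAHA (0.34, SE 0.13, limma adjusted p = 0.52). The ATPase Psmc4 read 9.86, 10.05 and 10.12 under vehicle and 10.39, 10.33 and 10.32 under SAHA (0.33, SE 0.13, limma adjusted p = 0.52). Neither overlapped, but a dimmer Psmc4 probe gave -0.01 (SE 0.12). In this comparison all 3 SAHA pools lay above all vehicle pools for 8 of 40 members and below for 2, beside 9.39% and 10.7% of all genes. The count above was the highest of the 9 comparisons, the others having 0 to 3, and the shares over all genes were also at their highest there.

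With brightness in the fit, 0 members remained at the uncorrected threshold for SAHA in HIP, and the differences were 0.08 for Psmg2 (0.41 without this term), 0.21 for Psmd4 (0.34), 0.25 for Psmc4 (0.33) and -0.64 for Psme3 (-0.89). SAHA replicates 2 and 3 were the dimmest HIP arrays, so this fit cannot fully separate SAHA from brightness. Within BeadChip 1, which held the SAHA pool that was not dim, the differences were -0.95 for Psme3, 0.17 for Psmg2, 0.33 for Psmd4 and 0.44 for Psmc4, and within BeadChip 2 they were -0.51, 0.43, 0.22 and 0.20. The scaling mattered here: with arrays centred on their medians in place of quantile normalization, the median of all genes moved to 0.25 and that of the members to 0.00, so that 9 of 40 members lay above the all-gene median against 27 of 40. Without SAHA replicates 2 and 3, which leaves 1 SAHA array whose spread is taken from the other groups, the differences were -0.71 for Psme3, 0.38 for Psmc4, 0.24 for Psmd4 and 0.11 for Psmg2. Oligodendrocyte markers moved with these arrays as well, at a summed level of 14.29 to 14.40 under SAHA against 14.51 to 14.64 under vehicle, and their part was not tested.

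**Figure D4:**
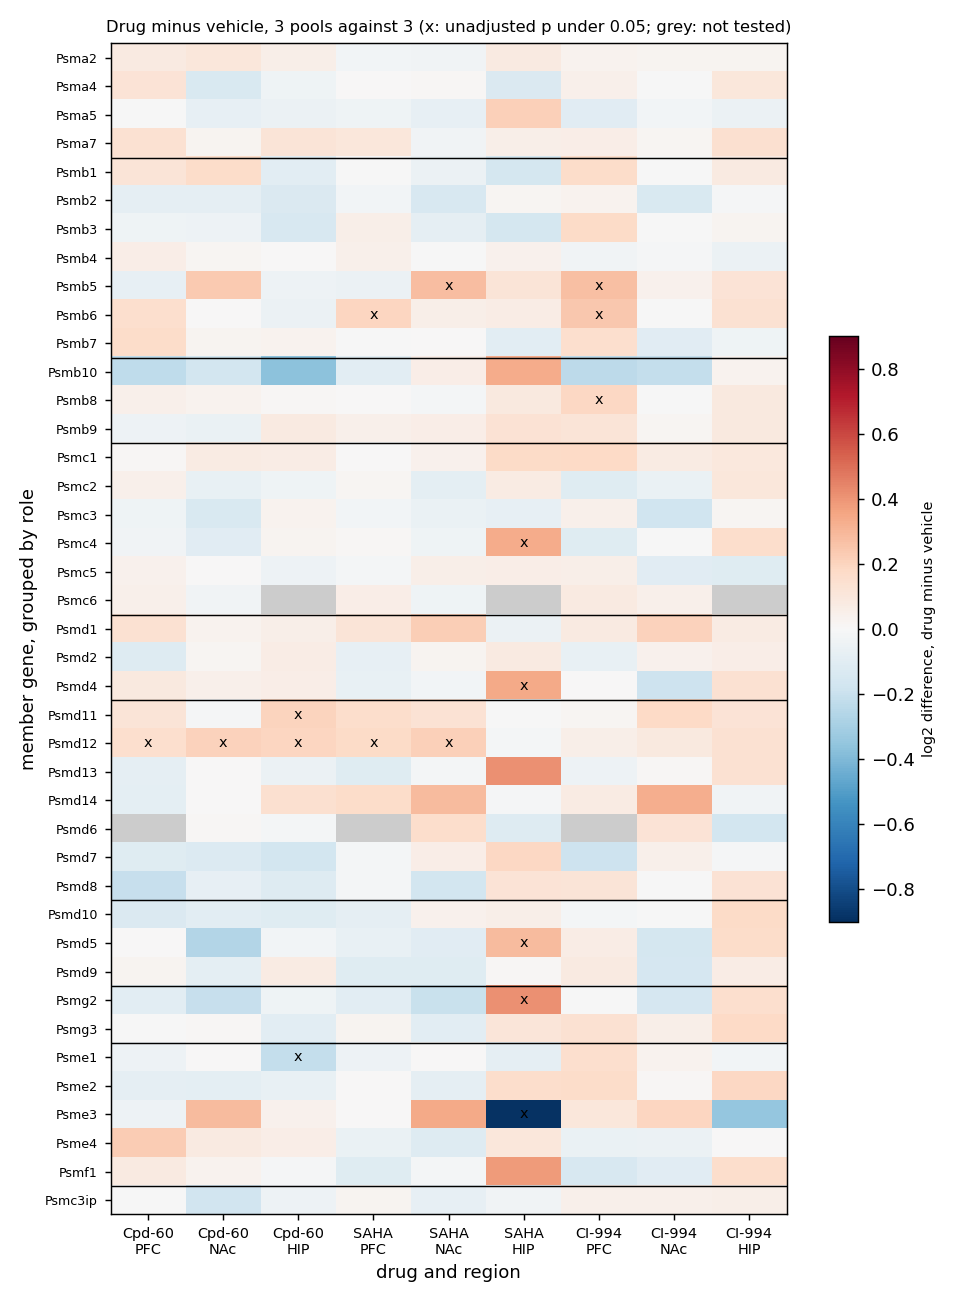
Log2 difference from vehicle (colour scale) for the 41 tested members (vertical axis) in the 9 drug comparisons (horizontal axis); a cross marks an unadjusted p under 0.05 and grey a member not tested. Crosses are few, at most 5 in a column (SAHA in HIP) and 0 in the CI-994 columns of NAc and HIP.

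**Figure D5:**
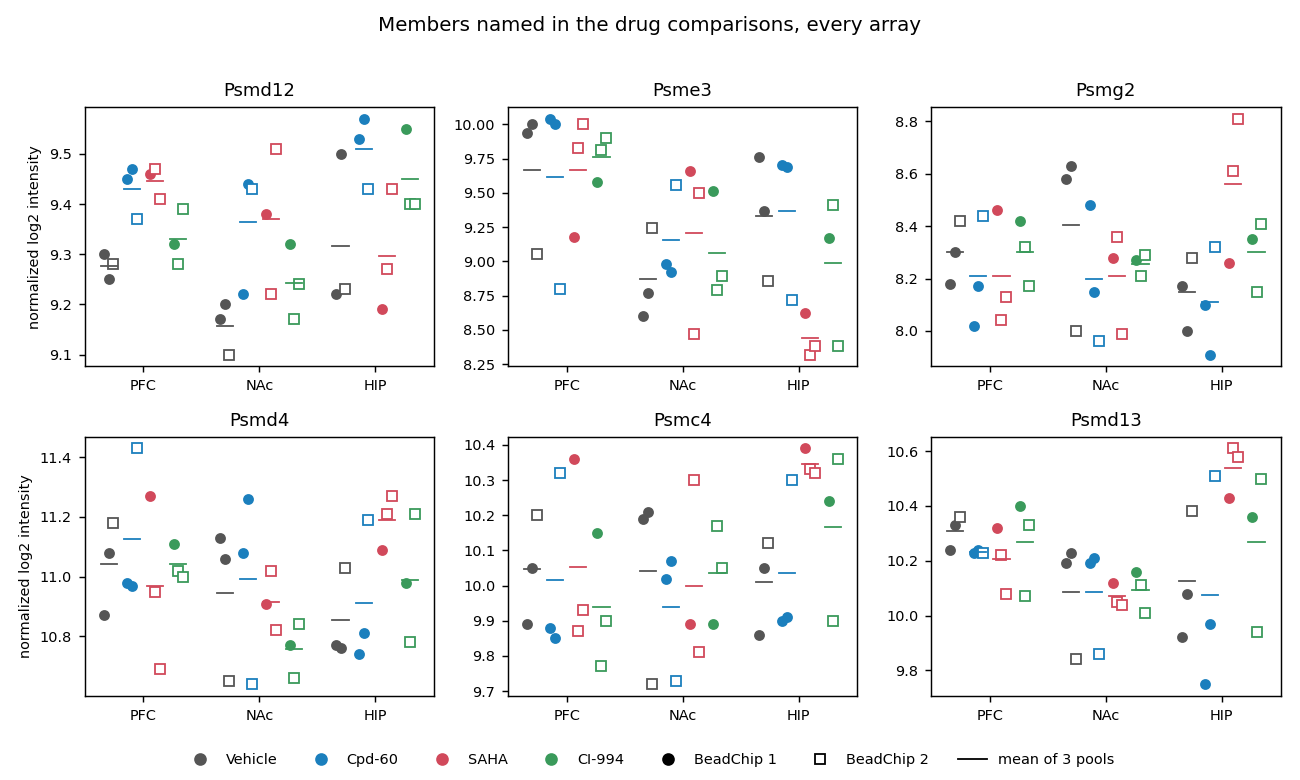
Normalized log2 intensity (vertical axis) of Psmd12, Psme3, Psmg2, Psmd4, Psmc4 and Psmd13 by region and treatment on all 36 arrays; filled circles are BeadChip 1, open squares BeadChip 2, and lines the mean of 3 pools. Psmd12 under Cpd-60 lies above vehicle in PFC and NAc, and the SAHA pools of Psme3 lie below vehicle in HIP but not in PFC or NAc.

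Whether a drug acted differently in HIP than in the other 2 regions was tested directly. For each drug, the effect in HIP minus its mean effect in PFC and NAc gave 0 of 41 members at an adjusted p under 0.05 by limma. At an unadjusted p under 0.05 the counts were 0 higher and 0 lower for Cpd-60 (1.14% and 1.28% of all genes), 4 higher and 2 lower for SAHA (4.08% and 3.75%), and 0 and 0 for CI-994 (1.41% and 0.921%). The largest SAHA differences were those of Psme3 (-1.06, SE 0.44, limma adjusted p = 0.65), Psmg2 (0.56, SE 0.20) and the lid subunit Psmd13 (0.47, SE 0.18). Psmd13 read 9.92, 10.08 and 10.38 in vehicle HIP and 10.43, 10.61 and 10.58 under SAHA, without overlap. With brightness in the fit no member passed the uncorrected threshold, but SAHA and brightness cannot be fully separated in HIP.

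The wider ubiquitin pathway was read from a list of partners and enzymes, of which 33 were on the array and 29 tested. In HIP against PFC under vehicle, 5 were higher and 4 lower, beside 10.1% and 10.2% of all genes. The higher ones included Shfm1, a small lid subunit outside the Psm names (1.24), the cap-bound deubiquitinases Uchl5 (1.12) and Usp14 (0.48), the ubiquitin-conjugating enzyme Ube2k (0.35) and the ubiquitin precursor Rps27a (0.25). The lower ones were the shuttle factor Ubqln4 (-0.83), the activating enzyme Uba1 (-0.74), and the unfoldase Vcp (-0.31) with its cofactor Nploc4 (-0.37).

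Between the NAc BeadChips 10 of these 29 genes were higher and 5 lower on BeadChip 2 (11.4% and 13% of all genes), led by Uchl5 (1.14), AI314180 (0.99), Shfm1 (0.86) and Usp14 (0.54), with Uba1 (-0.48), Ufd1l (-0.39) and the ubiquitin receptor Adrm1 (-0.36) lower. Shfm1, Uchl5 and Usp14 were thus higher in HIP than in PFC and higher on NAc BeadChip 2 than on BeadChip 1, as Psmd14 and Psmd11 were, and Uba1 was lower in both. Under the drugs 0 of these genes passed an adjusted p of 0.05. At the uncorrected threshold Rps27a was lower in HIP under Cpd-60 (-0.32, SE 0.08), SAHA (-0.28, SE 0.08) and CI-994 (-0.25, SE 0.08), comparisons that share their 3 vehicle arrays, and Fbxo7, a regulator of proteasome assembly, was lower under Cpd-60 in PFC (-0.24, SE 0.07).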

How the data were processed

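RNA from the 3 pools of each treatment, each dissected into 3 regions, was hybridised to 36 arrays on Illumina MouseWG-6 BeadChips. The authors deposited, for each array, a bead intensity and a detection p-value per probe, not normalized. Per the methods, the study then applied quantile normalization and a median baseline in GeneSpring. Here intensities were quantile-normalized over all 36 arrays, floored at 1 and log2-transformed, with no baseline step. Every value column mapped to a sample (0 unmapped). Differences were fitted with limma 3.58.1 in R 4.3.3 over all tested probes with Benjamini-Hochberg adjustment. Drug comparisons used the 12 arrays of a region without a block. Region comparisons and tests of drug effects between regions used all 36 arrays with the pool as a random block (correlation -0.01). "The methods' test" is a one-way test within a region with Tukey's correction. Same-numbered pools deviated together in every pair (correlation over 0.1) for Cpd-60 in PFC and NAc only. The number of arrays limits the precision, and pools of one group are separate animals.

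A rule chose the named genes: Psmb8, Psmb9 and Psmb10 throughout; in each drug comparison up to 3 members each way at an unadjusted p under 0.05; in region comparisons up to 5 each way at an adjusted p under 0.05; in tests between regions up to 3 each way; and members whose probes went opposite ways. Other genes named were chosen after their values were seen. Members, gene lists and tests were chosen with earlier results of these data known. All 47 symbols matched the RefSeq table (GRCm38.p6). Alternatives covered background correction (neqc, offset 16), median centring, filters, BeadChip, pool number, brightness, array weights and leaving out each pool. The BeadChip fits, the brightness slope and leaving out SAHA replicates 2 and 3 were added after seeing the data. Scripts were tested on simulated data. For Cpd-60 replicate 2, title and source name other mice than its description does, and the title was used. 1 gene of the antigen and interferon list is not reported here by name.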

Additional observations from a re-analysis of the deposited data

Results flagged for a closer look

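For SAHA, 6 members had an effect in HIP that differed from its mean effect in PFC and NAc at an unadjusted p under 0.05, and none did after adjustment (limma adjusted p = 0.65 for each). The log2 differences between the effects were -1.06 for Psme3, 0.56 for Psmg2, 0.47 for Psmd13, 0.37 for Psmd5, 0.27 for Psma5 and -0.21 for Psmd12. Psma5 read 11.24, 11.22 and 11.46 in vehicle HIP and 11.51, 11.53 and 11.52 under SAHA, without overlap. Psmd5 read 7.24, 7.31 and 7.43 under vehicle and 7.36, 7.88 and 7.60 under SAHA, with overlap. 2 of the 3 SAHA HIP arrays were dim, and with brightness in the fit 0 members stood at that threshold. That fit cannot fully separate SAHA from brightness in HIP.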

How the results depend on the processing

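No drug comparison had a member at an adjusted p under 0.05 under any alternative run, except SAHA in HIP with median centring, where 6 of 40 members passed (0 as reported): Psmb9, Psmd5, Psmd9 and Psmg2 higher, and Psmb3 and Psme3 lower. Many of the probes tested passed in that fit, since a limma p of 0.017 had an adjusted p of 0.043 there (Psmb3). The share of all genes is not given, so the 6 are not read as a response of the members. Median centring moved the median of all genes by more than 0.1 in SAHA HIP (to 0.25), CI-994 NAc (-0.10), vehicle HIP against PFC (-0.17) and vehicle HIP against NAc (-0.15). For vehicle HIP against PFC, 8 members as reported became 4 with median centring, 21 with all treatments and BeadChip terms, and 1 to 6 when a vehicle replicate was left out (1 without vehicle replicate 1, 3 without replicate 2). For vehicle NAc against PFC, 5 became 3 with neqc, 3 with median centring, 3 with no filter, 3 to 4 when a vehicle replicate was left out, 9 with NAc BeadChip 1 only and 23 with BeadChip 2 only. For vehicle HIP against NAc, 2 became 1 with median centring, 1 to 3 when a vehicle replicate was left out, 17 against NAc BeadChip 1 and 15 against BeadChip 2. The 17 were 11 higher and 6 lower, beside 19.2% and 22.9% of all genes. BeadChip as a random block gave 8, 6 and 2, with Psmd14 in NAc against PFC at 0.84 (limma adjusted p = 0.037). The BeadChip alternatives were chosen after seeing the data. No named call changed sign under the alternatives other than the BeadChip fits, but Psmd14, not called in vehicle HIP against NAc, was 0.93 higher against NAc BeadChip 1 and -0.19 against BeadChip 2. Psmb6 passed in all 10 of its alternatives for both HIP and NAc against PFC.

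Deviations of same-numbered drug and vehicle pools correlated at -0.44 to 0.72, with 15 of 27 pairs over 0.1. All 3 pairs were over 0.1 for Cpd-60 in PFC (0.17 to 0.58) and NAc (0.33 to 0.72), and in none of the other 7 comparisons. Cpd-60 and vehicle pools of one number also lay on one BeadChip, so a shared number and a shared BeadChip cannot be told apart there. The labels name no pairing of animals between treatments. With the number as a replicate block, the drug comparisons still had 0 members at an adjusted p under 0.05, and SAHA in HIP had 8 at an unadjusted p under 0.05 against 5. The vehicle arrays alone with a replicate block gave 10, 5 and 2 members, and no replicate block 8, 5 and 2. At the uncorrected threshold, neqc and median centring each left 0 members for Cpd-60 and SAHA in PFC and in NAc (1 or 2 as reported), so that Psmd12 was lost there. For Cpd-60 in HIP (3 as reported) neqc left 0 and median centring 1, and for CI-994 in PFC (3 as reported) they left 1 and 0. Counts rose with array weights, to 11 for SAHA in HIP, 12 for SAHA in NAc and 10 for CI-994 in NAc. Without Cpd-60 replicate 3, Cpd-60 in PFC had 7. Shares of all genes are not given for these fits, so the counts cannot be set against them. The smallest difference that 3 pools a group on 2 BeadChips could detect was not estimated, and the small differences of Psmd12 passed no corrected test.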
